A study of Homo sapiens with 12 samples.

Results

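The transcripts of 10 genes of cytokine signalling were followed through the messenger RNA of K562 cells and of their imatinib-resistant derivative, each with and without lycorine. The 10 genes were chosen by name among the 19447 gene symbols of the count table, and all 10 were present. They comprise the Janus kinases JAK1, JAK2, JAK3 and TYK2, the signal transducers and activators of transcription STAT3, STAT5A, STAT5B and STAT6, the erythropoietin receptor EPOR, and CSF2RB, the beta chain shared by the receptors for interleukin-3, interleukin-5 and GM-CSF.

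K562 is an established human cell line from chronic myeloid leukaemia that carries the BCR-ABL fusion kinase, and imatinib (IM) inhibits that kinase. The study compared 4 groups of 3 libraries each, which were K562 without drug, K562+L with 6 µM lycorine, K562/IM without lycorine, and K562/IM+L with 6 µM lycorine. Lycorine is a plant alkaloid. K562/IM was raised from K562 by stepwise exposure to imatinib and then kept in medium with 5 µM imatinib, as a single derived line, so that a difference between the lines is a difference between 1 resistant population and its parent. Neither the length of the lycorine exposure before sequencing nor the presence of imatinib at harvest is given in the sources used here.

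In this pathway a cytokine brings receptor chains together, the JAK proteins bound to their tails phosphorylate the receptor and then a STAT, and the STAT moves to the nucleus as a dimer. EPOR signals through JAK2 and mainly STAT5, and drives the survival of red cell precursors. In BCR-ABL cells the fusion kinase also keeps STAT5 phosphorylated without a cytokine, so that STAT5A and STAT5B are known for their place in this leukaemia. Phosphorylation was not measured here, only transcript abundance.

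The sample labels number the lycorine-treated resistant group G2, whereas the study's figures number it G6, and this was not settled. They are therefore named here by their label, as the labelled K562/IM+L libraries, and the comparisons of K562+L with K562 and of K562/IM with K562 do not use them. Total counts ran from 75093844 to 107344598 per library. The haemoglobin and erythroid genes that mark K562 (10 genes) were expressed in every library, with a summed level between 2985 and 55751 CPM (counts per 1000000 counts of the scaled library). Of 3 genes lost from K562 on chromosome 9, MTAP had 0 counts in all 12 libraries. CDKN2B had 0 counts in every group but K562/IM, and CDKN2A had some counts in each group. The summed level of the 3 did not exceed 0.108 CPM in any library. Low counts were uneven. Of the 23289 values between 1 and 25, 67.9% were divisible by 4 or exceeded such a number by 1, where an even spread over the whole numbers would give 52%. Counting intervals are therefore given also for counts divided by 4, and they cover counting error only. Nothing in the labels says that the 3 libraries of a group came from separate cultures, so that p-values measure the spread between these libraries, which may be technical. In bulk RNA, fewer cells that express a gene and less RNA per cell cannot be told apart.

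Abundance is given as CPM after normalization across the 12 libraries, as mean ± SD with n = 3. A change is a log2 fold change with its standard error (SE) from edgeR's quasi-likelihood test on 6 libraries, and it passed at a Benjamini-Hochberg adjusted p under 0.05 over all genes tested. The test itself returns no SE, which was computed as the absolute log2 fold change divided by the square root of the test's F statistic. A gene that reached the low-count minimum of the filter in only 1 of the compared groups had to differ in order to be tested. JAK3 was in this position in the comparisons with K562 and CSF2RB in those with K562/IM, and CSF2RB could not be tested in the others. For the difference of the lycorine effects between the lines, the rule was 0 libraries at the minimum in any of the 4 groups. It held for JAK3 and CSF2RB. Where this holds they are therefore described by their counts and left out of the numbers of members that passed. The background shares cover all genes tested, such genes included. Without them the share that passed was 37.1% in K562+L and 55.8% in K562/IM, each against K562. It was 65.7% in the labelled K562/IM+L libraries against K562/IM and 55.3% against K562. For the difference of the lycorine effects between the lines it was 64.3%.

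In K562 cells given lycorine, 4 members fell, namely STAT5A, STAT3, STAT5B and EPOR. The count was 4 of 8 members, against a background of 37.3% of 12927 genes that passed in either direction and 19.0% that passed as lower. By edgeR's test 0 members rose, also at an unadjusted p under 0.05, and 0 rose with DESeq2, against 18.2% of genes that passed as higher. No change exceeded 1 on the log2 scale and passed, which 6.39% of genes did. Libraries of the groups did not overlap in 5 of the 8 members, against 51.5% of genes. The median log2 fold change of the 8 members was -0.30, and that of all genes was near 0.

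In K562/IM cells, STAT6, JAK1 and TYK2 were higher than in K562, and EPOR was lower. That is 4 of 8 members, against a background of 57.1% of 13406 genes, so that the share of members was near that of all genes. By direction, the background was 30.1% higher and 27.1% lower. The change exceeded 1 on the log2 scale in 0 of the 8, against 19.1% of genes. The groups did not overlap in 5 of the 8 members, against 66.6% of genes. The members' median was 0.09 and that of all genes 0.04.

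Under lycorine as labelled, EPOR and STAT5B were higher than in K562/IM, and STAT5A and JAK1 were lower. That is 4 of 9 members, against a background of 66.8% of 13727 genes (33.2% higher and 33.6% lower). The change exceeded 1 on the log2 scale in EPOR, against 28.5% of genes, and the groups did not overlap in 4 of 9 members, against 73.4%. Against K562, 5 of 8 members passed (TYK2, STAT5B, STAT6 and EPOR higher, STAT5A lower), with a background of 56.0% of 13307 genes (28.2% higher and 27.8% lower). The change exceeded 1 in EPOR, against 23.8% of genes, and 5 of 8 did not overlap, against 63.6%. Comparisons that share a control group are not independent of each other.

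**Figure D1:**
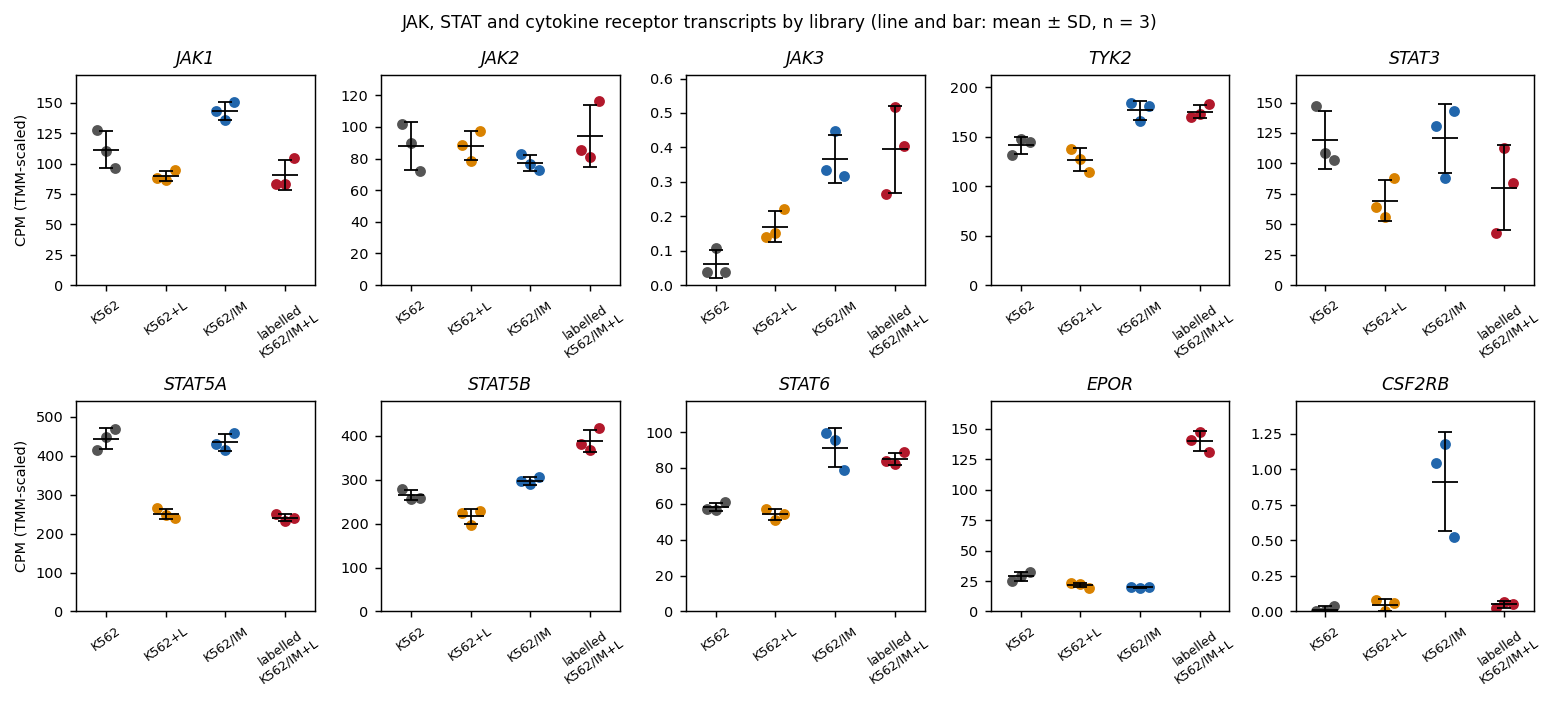
Abundance of the 10 transcripts in every library, in CPM on a linear axis that starts at 0, for K562, K562+L, K562/IM and the labelled K562/IM+L libraries. Points are libraries, and the line and bar are the mean ± SD (n = 3); EPOR stands at 131 to 148 CPM in the labelled K562/IM+L libraries and at or below 32 CPM in the other 9, and CSF2RB is above 0.5 CPM only in K562/IM.

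EPOR is the receptor through which erythropoietin acts on red cell precursors. It lies on the minus strand at chr19:11377205-11384342 (GRCh38). Its promoter is shown because EPOR had the member change with the smallest adjusted p. It is the 250 bases before the RefSeq start (GRCh38.p14, chr19:11384315-11384564, minus strand), with a GATAA match in capitals, which is read here on the opposite strand as TTATC and lies at position -78 from the start.

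EPOR promoter: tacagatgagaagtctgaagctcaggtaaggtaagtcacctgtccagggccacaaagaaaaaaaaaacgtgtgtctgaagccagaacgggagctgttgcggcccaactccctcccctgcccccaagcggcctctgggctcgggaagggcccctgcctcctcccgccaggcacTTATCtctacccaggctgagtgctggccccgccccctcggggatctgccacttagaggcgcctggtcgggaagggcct

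GATAA is the core recognised by the erythroid factor GATA1. A match on either strand was present in 20.4% of 35116 RefSeq promoter windows of this length and in 3 of the 16 windows of the 9 members that have one, in EPOR, STAT6 and 1 window of JAK1. The STAT5 core TTCNNNGAA, found in 6.57% of all windows, was in 0 of the 16. CACCC, the core bound by KLF1, was in 54.7% of all windows and in 9 of the 16, and the EPOR window had 0 matches. A match is a description of letters, not of binding.

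EPOR stood at 24.9, 29.2 and 32 CPM in the 3 K562 libraries and at 23.2, 22.3 and 19.5 CPM in K562+L. It stood at 19.8, 19.3 and 20.3 CPM in K562/IM, and at 141, 148 and 131 CPM in the labelled K562/IM+L libraries. The first 3 groups thus lay within a narrow span, and the last group was clear of all of them. EPOR fell in K562+L against K562 by a small amount, log2 fold change -0.41 (SE 0.122, adjusted p = 0.0316). It was lower in K562/IM than in K562, log2 fold change -0.54 (SE 0.105, adjusted p = 0.00312). It was 7.2-fold higher in the labelled K562/IM+L libraries than in K562/IM (log2 fold change 2.85 (SE 0.0741, adjusted p = 2.86e-07)), and 4.81-fold higher than in K562 (log2 fold change 2.27 (SE 0.119, adjusted p = 1.38e-05)). The decrease in K562+L lost its call without any 1 of K562 replicate 2 or 3 or K562+L replicate 1, 2 or 3, with an adjusted p between 0.0598 and 0.111. The other EPOR calls held with any 1 library left out.

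The lycorine effect on EPOR differed between the lines by 3.24 on the log2 scale (SE 0.143, adjusted p = 8.13e-09, edgeR interaction over 12 libraries), 1 of 2 members, with STAT5B, that passed this test of 8, against a background of 61.7% of 13995 genes (29.9% positive and 31.7% negative). The difference exceeded 1 in EPOR, against 33.7% of genes. The summed level of the erythroid marker genes moved with EPOR. It was 2985 to 3181 CPM in K562/IM and 38524 to 55751 CPM in the labelled K562/IM+L libraries. There 10 of 10 were higher, against 33.2% of all genes. In K562+L against K562, 6 of 10 were lower and 0 higher by edgeR's test, against 19.0% and 18.2% of all genes. In K562/IM against K562, 7 of 10 were lower and 1 higher, against 27.1% and 30.1%. GATA1 itself stood at 196 ± 2.41 CPM in K562/IM and 249.8 ± 32.6 CPM in the labelled K562/IM+L libraries (log2 fold change 0.38 (SE 0.0983, adjusted p = 0.011)). The part of these genes in the EPOR values was not tested.

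Among genes with a mean of at least 1 CPM, those whose profile over the 12 libraries was nearest to EPOR were STARD10, TESC and DMTN. The likeness is the mean absolute difference in log2 CPM after centring each gene on its own mean, and it was 0.147, 0.165 and 0.174. DMTN encodes dematin, a protein of the red cell membrane skeleton. DMTN stood at 38.4 CPM in K562, 23.5 in K562+L, 26.1 in K562/IM and 141 in the labelled K562/IM+L libraries. The 6 nearest tested genes on the chromosome, 3 on each side of EPOR, also had positive log2 fold changes in the labelled K562/IM+L libraries against K562/IM. Their median was 0.87 (0.12 to 2.11), below the 2.85 of EPOR.

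CSF2RB (chr22:36913628-36940449, plus strand) was the rarest receptor of the pair. It had 0, 0 and 3 counts in K562, 7, 0 and 6 in K562+L, 87, 113 and 56 in K562/IM, and 2, 5 and 5 in the labelled K562/IM+L libraries. Every K562/IM library was above every other library, and the other groups overlapped. With the libraries of a group summed, it was 72.3 times as abundant in K562/IM as in K562 (exact 95% interval 24.5 to 353, or 9.39 to 2176 for counts divided by 4). It was 18.2 times as abundant in K562/IM as in the labelled K562/IM+L libraries (interval 10.3 to 35.8, or 5.97 to 90.8 for counts divided by 4).

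The alpha chains that pair with CSF2RB to form whole receptors were near or at 0. CSF2RA, the GM-CSF receptor chain, was listed at 0 counts in all 12 libraries. IL3RA, the interleukin-3 receptor chain, did not exceed 0.173 CPM, and IL5RA did not exceed 0.0958 CPM. The 3 counts that a value of 0 allows correspond to between 0.0280 and 0.0419 CPM, depending on the library. This bound takes the counts as listed and does not allow for the uneven low counts described above, so that it may be too low. Of the marker genes of lymphocytes and monocytes, 4 of the 6 tested were higher in K562/IM than in K562 and 0 lower, against 30.1% and 27.1% of all genes. The summed level of the 8 genes was 384 to 401 CPM against 160 to 182, and CD53 rose from 9.07 to 182 CPM. PTPRC did not rise, at 42.5 ± 2.23 CPM in K562/IM against 47.6 ± 8.51 in K562, which overlapped. MS4A1, a B cell marker, had 0 counts in every library. The same sum was 114 to 118 CPM in the labelled K562/IM+L libraries, and its part in the CSF2RB values was not tested. The profiles nearest to CSF2RB over the 12 libraries were those of NOTCH2, ADGRB2 and RIN1, with mean absolute differences of 0.714, 0.726 and 0.766.

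**Figure D2:**
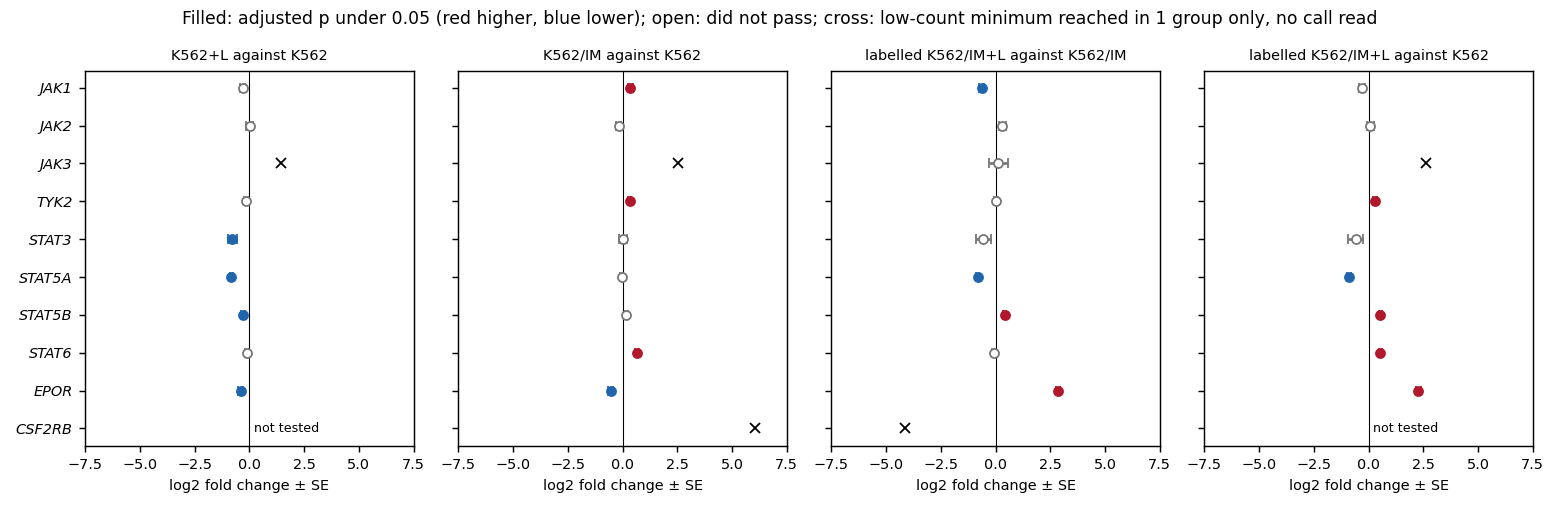
Fitted log2 fold change ± SE of each member in the 4 pairwise comparisons, from edgeR's quasi-likelihood test with 3 libraries a group. Filled points passed at an adjusted p under 0.05 (red higher, blue lower) and open points did not; crosses mark JAK3 and CSF2RB where they reached the low-count minimum in 1 group only. EPOR lies at 2.85 in the labelled K562/IM+L libraries against K562/IM, and STAT5A at -0.83.

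Among the kinases, JAK2 is the partner of EPOR and CSF2RB, JAK1 serves many receptors, TYK2 serves the receptors of type I interferons and of the interleukin-12 family, and JAK3 works with the common gamma chain IL2RG. JAK2 (chr9:4984390-5128183) varied within the groups. It stood at 102, 89.5 and 71.9 CPM in K562, 88.8, 78.5 and 97.1 in K562+L, 82.8, 76.4 and 72.9 in K562/IM and 85.3, 80.8 and 117 in the labelled K562/IM+L libraries. The 4 groups overlapped one another, and JAK2 did not pass in any of the 5 edgeR tests, with adjusted p from 0.0926 to 0.982. It did pass under 3 alternatives, as lower in K562/IM than in K562 without K562 replicate 3 (-0.32, adjusted p = 0.0170), and as higher in the labelled K562/IM+L libraries than in K562/IM without their replicate 2 (0.41, adjusted p = 0.0379) or with upper-quartile scaling (0.37, adjusted p = 0.0479).

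JAK1 (chr1:64833229-64966504) was highest in K562/IM. It stood at 127, 110.4 and 96.6 CPM in K562 and at 144, 136 and 151 CPM in K562/IM, with no overlap (log2 fold change 0.36 (SE 0.108, adjusted p = 0.0216)). In the labelled K562/IM+L libraries it stood at 83.3, 83 and 105 CPM, below all 3 K562/IM libraries (log2 fold change -0.64 (SE 0.11, adjusted p = 0.00146)). In K562+L it stood at 88.5, 86.3 and 94.4 CPM, which did not overlap K562 but did not pass (log2 fold change -0.31, adjusted p = 0.0611). That decrease passed under 4 of 14 alternatives, with DESeq2 (adjusted p = 0.0331), with upper-quartile scaling (0.0362), with all 12 libraries in 1 fit (0.0445) and without K562 replicate 3 (0.0220). The higher level in K562/IM was lost without K562 replicate 2 or K562/IM replicate 1 or 3 (adjusted p between 0.0643 and 0.0810).

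TYK2 (chr19:10350529-10380676) was higher in the resistant line with or without lycorine. Its 3 K562 libraries stood at 132, 147 and 145 CPM and its K562/IM libraries at 184, 166 and 181 CPM, a 1.25-fold difference (log2 fold change 0.32 (SE 0.078, adjusted p = 0.00859)). The libraries labelled K562/IM+L stood at 170.4, 173 and 183 CPM, inside or next to the K562/IM range. Their difference from K562 was log2 0.29 (SE 0.0829, adjusted p = 0.0198). This last call was lost without any 1 of K562 replicate 1, 2 or 3 or labelled K562/IM+L replicate 1 or 2 (adjusted p between 0.0515 and 0.0769).

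JAK3 (chr19:17824780-17848071) was detected near the floor. It had 3, 9 and 3 counts in K562, 12, 13 and 23 in K562+L, 28, 43 and 34 in K562/IM, and 21, 37 and 38 in the labelled K562/IM+L libraries. All libraries of the last 3 groups lay above all K562 libraries. Summed, the ratio to K562 was 5.93 in K562/IM (exact 95% interval 3.44 to 11.0, or 1.91 to 21.7 for counts divided by 4) and 6.34 in the labelled K562/IM+L libraries (interval 3.66 to 11.8, or 2.04 to 23.6). In K562+L the ratio was 2.80 (interval 1.54 to 5.39, or 0.797 to 11.2). IL2RG, the chain that binds JAK3, stood at 28 ± 1.54 CPM in K562 and 13.2 ± 0.589 in K562+L, where it was lower (log2 fold change -1.09 (SE 0.0926, adjusted p = 0.000262)). It was also lower in the labelled K562/IM+L libraries than in K562/IM (log2 fold change -1.16 (SE 0.101, adjusted p = 4.65e-05)).

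The 4 STAT genes did not move together. STAT5A (chr17:42287547-42311943, plus strand) and STAT5B (chr17:42199168-42276707, minus strand) lie 10839 bases apart, and STAT3 (chr17:42313324-42388568, minus strand) begins 1380 bases beyond STAT5A. STAT5A and STAT5B are close paralogs, and how reads that fit both were counted is not given in the sources used here, so that their separate values are uncertain to that extent.

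STAT5A was lower in both lycorine groups, as labelled, than in the untreated cells of the same line. It stood at 415, 449 and 469 CPM in K562 and 266, 248 and 239 CPM in K562+L, a 1.77-fold decrease (log2 fold change -0.83 (SE 0.0834, adjusted p = 0.000532)). It stood at 430.1, 416 and 459 CPM in K562/IM and 249.96, 233 and 239.7 CPM in the labelled K562/IM+L libraries, again a 1.77-fold decrease (log2 fold change -0.83 (SE 0.0692, adjusted p = 3.83e-05)). The groups did not overlap in either comparison, and both calls held with any 1 library left out. K562 and K562/IM overlapped each other (log2 fold change -0.03, adjusted p = 0.744). The interaction was -0.02 (SE 0.0984, adjusted p = 0.859), which does not show that the effects were equal. The profiles nearest to STAT5A were those of ITGB5, ZNF57 and TOMM40L, with mean absolute differences of 0.0631, 0.0707 and 0.0894.

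STAT5B moved in opposite directions in the lycorine comparisons of the lines. It stood at 279, 257 and 259 CPM in K562 and 225, 197 and 229 CPM in K562+L, where it fell (log2 fold change -0.29 (SE 0.0885, adjusted p = 0.0344)). It stood at 297, 289 and 307 CPM in K562/IM and 381, 369 and 418 CPM in the labelled K562/IM+L libraries, where it was 1.33-fold higher (log2 fold change 0.41 (SE 0.0742, adjusted p = 0.00185)). The groups did not overlap in either comparison. The lycorine effect differed between the lines by 0.68 on the log2 scale (SE 0.106, adjusted p = 0.000172). The decrease in K562+L was lost without any 1 of K562 replicate 1 or 2 or K562+L replicate 1, 2 or 3 (adjusted p between 0.0534 and 0.114).

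The balance of the paralogs was measured within each library on a per-length scale, as counts per kilobase of exon, which allows a comparison between genes. STAT5A over STAT5B was 1.88 ± 0.191 in K562 (1.67 to 2.03), 1.30 ± 0.122 in K562+L (1.17 to 1.41), 1.64 ± 0.0338 in K562/IM (1.61 to 1.68) and 0.696 ± 0.0476 in the labelled K562/IM+L libraries (0.643 to 0.736), each with n = 3. STAT5A was thus the more abundant paralog in 9 libraries and STAT5B in the 3 labelled K562/IM+L. The ratios of K562+L and K562 did not overlap, nor did those of the labelled K562/IM+L libraries and either untreated line. Each of these 3 differences gave a two-sided exact permutation p of 0.1, the smallest that 3 against 3 allows, or 0.133 after Benjamini-Hochberg adjustment over 12 ratio tests. K562/IM and K562 overlapped (exact p = 0.2).

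**Figure D3:**
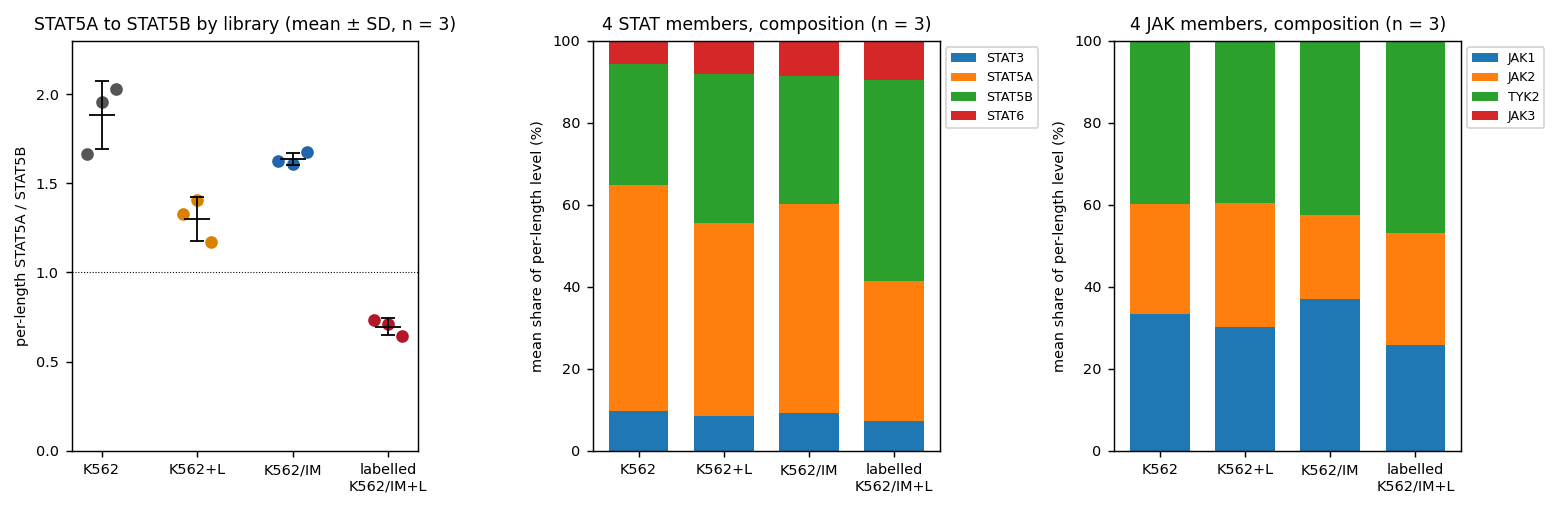
Left, STAT5A over STAT5B per length of exon in each library (points; line and bar, mean ± SD, n = 3), with a dotted line where both are equal. Middle and right, the mean share in percent of each gene in the summed per-length level of the 4 STAT members and of the 4 JAK genes; STAT5A makes up 55.2% in K562 and 34.1% in the labelled K562/IM+L libraries.

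Among the 4 STAT members STAT3, STAT5A, STAT5B and STAT6 together, STAT5A made up 55.2% of the per-length level in K562, 47.2% in K562+L, 51.1% in K562/IM and 34.1% in the labelled K562/IM+L libraries. STAT5B made up 29.4%, 36.3%, 31.2% and 49.1% in the same order. STAT6 ranged from 5.70% in K562 to 9.47% in the labelled K562/IM+L libraries, and STAT3 between 7.34% and 9.68%. STAT2, which is not a member and carries interferon signals, was lower in K562+L than in K562 (log2 fold change -0.35 (SE 0.0964, adjusted p = 0.0249)) and higher in K562/IM than in K562 (log2 fold change 0.76 (SE 0.0829, adjusted p = 0.000183)). Among the 4 JAK genes, TYK2 had the highest mean share in each group (39.6% to 46.9%), and JAK3 did not exceed 0.146% in any library.

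STAT3, which serves the interleukin-6 family of cytokines, varied widely between libraries of 1 group. It stood at 147, 108 and 102 CPM in K562 and 64.1, 56.3 and 88.1 CPM in K562+L, with no overlap (log2 fold change -0.78 (SE 0.195, adjusted p = 0.0168)). It stood at 131, 88.3 and 143 CPM in K562/IM and 42.9, 112 and 84.2 CPM in the labelled K562/IM+L libraries, which overlapped and did not pass (log2 fold change -0.57, adjusted p = 0.171). The decrease in K562+L was lost without K562+L replicate 1 (adjusted p = 0.0728) or 2 (0.0534), and when all 12 libraries shared 1 estimate of the spread (0.0646). Without labelled K562/IM+L replicate 2, STAT3 passed as lower in those libraries against K562/IM (-0.90, adjusted p = 0.0440) and against K562 (-0.93, adjusted p = 0.0492).

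STAT6, which acts below the receptors for interleukin-4 and interleukin-13, was higher in the resistant line with or without lycorine as labelled. It lies on the minus strand at chr12:57095408-57132139. It stood at 57.2, 56.3 and 60.8 CPM in K562 and 57.1, 51.1 and 54.5 CPM in K562+L, which overlapped. It stood at 99.7, 95.3 and 79 CPM in K562/IM and 84, 82.3 and 88.6 CPM in the labelled K562/IM+L libraries, which also overlapped each other, and every library of these groups was above every library of K562 and K562+L. It was 1.57-fold higher in K562/IM than in K562 (log2 fold change 0.65 (SE 0.10, adjusted p = 0.00102)), and 1.44-fold higher in the labelled K562/IM+L libraries than in K562 (log2 fold change 0.53 (SE 0.0768, adjusted p = 0.00101)). STAT6 overlaps LRP1 on the opposite strand over 3647 bases and NAB2 over 69, and JAK2 overlaps INSL6 over 4304. The strand setting of the counting is not given in the sources used here, so that reads of such pairs may not be separated. IL4R, the receptor chain that binds interleukin-4, stood at 12.4 ± 0.456 CPM in K562/IM and 1.16 ± 0.324 in the labelled K562/IM+L libraries (log2 fold change -3.41 (SE 0.205, adjusted p = 7.93e-06)).

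On the per-length scale the order of the members in K562 was STAT5A, STAT5B, TYK2, JAK1, JAK2, STAT3, EPOR, STAT6, JAK3 and CSF2RB. Their levels ran from 297 ± 3.53 for STAT5A and 159 ± 17.6 for STAT5B down to 35.7 ± 2.08 for EPOR and 30.6 ± 1.47 for STAT6, in counts per kilobase scaled to the same total in every library, and JAK3 and CSF2RB lay far below at 0.0344 and 0.00924. TYK2 (80.2 ± 3.36), JAK1 (68.4 ± 14.2), JAK2 (55.2 ± 13.1) and STAT3 (52.6 ± 14.2) followed each other in that order, and each differed from the next by less than the sum of their SDs. Within each K562 library JAK1 stood above JAK2, whereas in replicate 1 TYK2 stood below JAK1 and JAK2 below STAT3. EPOR ranked 7 of 10 in K562, 8 in K562+L and K562/IM, and 2 in the labelled K562/IM+L libraries. There its level of 155 ± 6.81 lay between 207 ± 34.8 for STAT5B and 143 ± 15 for STAT5A, and it overlapped the level of STAT5A within their SDs. Within each of these libraries EPOR stood above STAT5A, with ratios of 1.05, 1.18 and 1.02. EPOR over its kinase JAK2 was 0.514 ± 0.0401 in K562/IM and 3.07 ± 0.732 in the labelled K562/IM+L libraries (exact p = 0.1, the smallest possible).

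For the other genes of the pathway, too, the numbers that passed leave out genes at the low-count minimum in only 1 of the compared groups. Of 40 other cytokine receptor chains in the table, 20 to 24 remained in a comparison. In K562+L against K562, 1 was higher and 5 lower of 20, where 37.3% of all genes passed, with a median log2 fold change of -0.09. IL20RB fell most (log2 fold change -1.92 (SE 0.254, adjusted p = 0.00151)), and IL10RA, the interleukin-10 receptor chain, was the 1 that rose (log2 fold change 0.85 (SE 0.162, adjusted p = 0.0061)). In K562/IM against K562, 8 were higher and 4 lower of 20, or 60.0% against 57.1% of all genes, with a median of 0.52 against 0.04. OSMR, the oncostatin M receptor, rose from 5.68 ± 1.17 to 24.9 ± 0.359 CPM (log2 fold change 2.13 (SE 0.149, adjusted p = 2.03e-05)). IL6R stood at 0.0318 CPM in K562 and 0.879 CPM in K562/IM and IL22RA1 at 0.0238 and 0.518 CPM, both below the minimum in every K562 library. With lycorine as labelled, 7 were higher than in K562/IM and 10 lower of 24, or 70.8% against 66.8% of all genes, with a median of -0.59 against -0.01, and IL10RA stood at 2.15 CPM against 19.8 (log2 fold change -3.18 (SE 0.172, adjusted p = 4.82e-06)). Against K562, 5 were higher and 5 lower of 20, or 50% against 56.0%, and CSF3R, the G-CSF receptor, below the minimum in K562, stood at 0.603 ± 0.318 CPM against 0.0661 ± 0.0574. LIFR and IL6ST, which signal together, varied within groups, and IL6ST ran from 2.39 to 68.3 CPM among the 3 labelled K562/IM+L libraries.

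Of 35 cytokine ligands, 7 to 10 remained in a comparison. In K562+L 0 rose by edgeR's test and 4 of 7 fell, where 37.3% of all genes passed, among them IL23A (log2 fold change -1.29 (SE 0.292, adjusted p = 0.0115)) and THPO, which encodes thrombopoietin (log2 fold change -1.46 (SE 0.434, adjusted p = 0.0315)). IL12A stood at 0.0064 CPM against 0.167 and was below the minimum in K562+L. In K562/IM 4 of 7 were higher than in K562 and 0 lower, or 57.1%. The share among all genes was 57.1%, or 55.8% with genes at the minimum in 1 group only left out there too. Another 5 ligands reached the minimum in 1 of these groups only. Among them LIF, a ligand of the interleukin-6 family, stood at 1.19 ± 0.181 CPM in K562/IM against 0.0331 ± 0.0287 in K562. CSF2, which encodes GM-CSF, a ligand of CSF2RB, stood at 0.26 ± 0.050 against 0.0123 ± 0.0213 CPM, and IL10 at 0.308 ± 0.197 against 0.0214 ± 0.0371 CPM. IL3, which encodes interleukin-3, stood at 0.305 ± 0.0414 CPM in K562/IM against 0.0412 ± 0.0146 in K562. IL12A went the other way, at 0.0499 ± 0.0471 CPM in K562/IM against 0.167 ± 0.0616 in K562. With lycorine as labelled, 1 of 10 was higher than in K562/IM and 4 were lower, where 66.8% of all genes passed. CSF2 stood there at 0.0423 ± 0.0425 CPM and IL10 at 0.0155 ± 0.0135 CPM. OSM, oncostatin M, stood at 0.587 ± 0.325 CPM there and was listed at 0 in every K562 library. CTF1, cardiotrophin, was higher there than in K562 (log2 fold change 1.69 (SE 0.13, adjusted p = 5.54e-05)) and CNTF was lower (log2 fold change -1.07 (SE 0.285, adjusted p = 0.0156)), as part of 2 ligands higher and 1 lower of 7. EPO, the ligand of EPOR, did not exceed 0.251 CPM in any library.

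**Figure D4:**
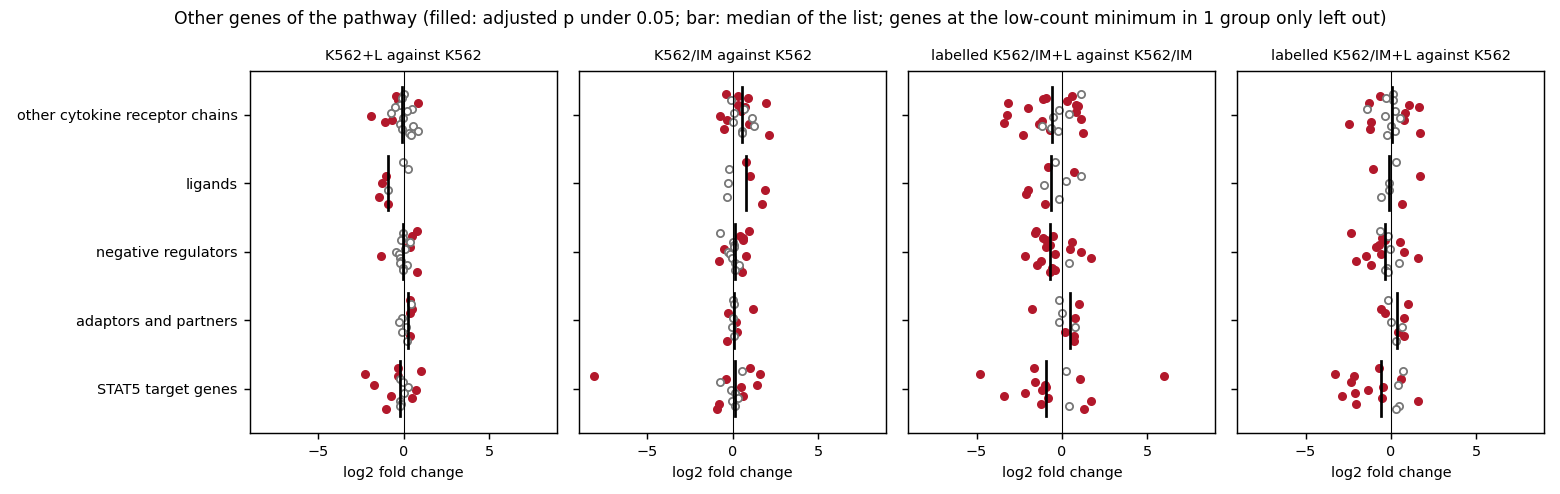
Fitted log2 fold change of the genes of 5 lists of the pathway in the 4 pairwise comparisons, without those at the low-count minimum in 1 group only; filled points passed at an adjusted p under 0.05, and the bar is the median of the list. The medians of the negative regulators and of the STAT5 target genes in the labelled K562/IM+L libraries against K562/IM are -0.67 and -0.95.

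The list of negative regulators was made by name, and whether each gene acts only as an inhibitor was not tested. Of its 19 genes, all of which could be tested, 5 were higher and 1 lower in K562+L, or 31.6% against 37.3% of all genes. The 1 that fell was SH2B3, which encodes the JAK2 inhibitor LNK (log2 fold change -1.32 (SE 0.117, adjusted p = 0.000293)), while the ubiquitin ligase CBL (log2 fold change 0.79 (SE 0.216, adjusted p = 0.0231)) and SOCS7 (log2 fold change 0.78 (SE 0.152, adjusted p = 0.00649)) rose. In K562/IM 7 were higher and 2 lower than in K562, or 47.4% against 57.1%, with CBL (0.94) and SH2B3 (0.80) among the higher and SOCS2 (-0.81) among the lower. The labelled K562/IM+L libraries had 4 higher and 14 lower than K562/IM, or 94.7% against 66.8% of all genes (33.2% higher and 33.6% lower), at a median of -0.67 on the log2 scale against -0.01 over all genes. SH2B3 was lower there (log2 fold change -2.19 (SE 0.126, adjusted p = 6.58e-06)), CISH, a feedback inhibitor of STAT5, was lower (log2 fold change -1.57 (SE 0.435, adjusted p = 0.014)), and SOCS1 was higher (log2 fold change 1.71 (SE 0.218, adjusted p = 0.000321)). CISH varied within K562/IM, from 13.7 to 51.0 CPM, and its lowest library there was close to the labelled K562/IM+L range of 11.8 to 13.1 CPM. It also ran from 18.9 to 86.5 CPM in K562+L. Against K562, 3 were higher and 9 lower, or 63.2% against 56.0%, with CISH at 12.4 ± 0.659 CPM against 62.1 ± 7.06 and SOCS2 at 53.3 ± 2.33 against 219.7 ± 3.42.

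Of 17 genes known as targets of STAT5, 16 remained in each comparison. STAT5 is known to activate most of them and to repress BCL6, so that the counts mix both kinds. In K562+L 3 were higher, BCL6 among them, and 6 lower, and in K562/IM 5 were higher and 4 lower, or 56.2% in each against 37.3% and 57.1% of all genes. The labelled K562/IM+L libraries had 4 higher and 10 lower than K562/IM, or 87.5% against 66.8% (median log2 fold change -0.95 against -0.01), and 2 higher and 10 lower than K562, or 75.0% against 56.0% (median -0.61 against 0.02). CISH, OSM and 3 SOCS genes are on this list and on another one, so that the lists are not separate evidence. In K562+L the cyclin CCND1 (log2 fold change -2.26 (SE 0.123, adjusted p = 4.81e-05)), ID1 (log2 fold change -1.74 (SE 0.19, adjusted p = 0.000728)) and the transferrin receptor TFRC (log2 fold change -1.06 (SE 0.116, adjusted p = 0.000736)) fell. CCND1 rose in K562/IM (log2 fold change 1.61 (SE 0.0911, adjusted p = 7.29e-06)) as did ID1 (1.45), and CCND1 was lower in the labelled K562/IM+L libraries than in K562/IM (log2 fold change -4.82 (SE 0.11, adjusted p = 1.78e-07)). The kinase PIM2 stood at 23.1 ± 2.22 CPM in the labelled K562/IM+L libraries against 163 ± 13.1 in K562 (log2 fold change -2.84 (SE 0.115, adjusted p = 7.96e-06)). CCND2, another cyclin, went the other way, at 124 ± 6.32 CPM in K562, 0.456 ± 0.162 in K562/IM and 27.9 ± 1.09 in the labelled K562/IM+L libraries. Its decrease in K562/IM was log2 -8.11 (SE 0.221, adjusted p = 3.82e-07).

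The 10 adaptors and partners include the docking proteins GAB1 and GAB2. In K562+L 4 were higher and 0 lower by edgeR's test, or 40.0% against 37.3% of all genes, namely GAB2 (log2 fold change 0.49 (SE 0.128, adjusted p = 0.0198)), STAM (0.38), CRKL (0.34), a BCR-ABL substrate, and GRB2 (0.34). In K562/IM 3 were higher and 2 lower, or 50% against 57.1%, with GAB2 at 186 ± 11.1 CPM against 81.1 ± 8.5 (log2 fold change 1.19 (SE 0.0954, adjusted p = 4.00e-05)), and with STAM2 (-0.35) and GRB2 (-0.29) lower. In the labelled K562/IM+L libraries, GAB2 was lower than in K562/IM (log2 fold change -1.75 (SE 0.114, adjusted p = 1.16e-05)), and GAB1 (log2 fold change 1.03 (SE 0.148, adjusted p = 0.000591)) and the interferon factor IRF9 (0.80) were higher, as part of 5 higher and 1 lower (60.0% against 66.8%). Against K562, 4 were higher and 2 lower there (60.0% against 56.0%), with GAB1 (1.03), IRF9 (0.80) and STAM (0.79) the highest.

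**Figure D5:**
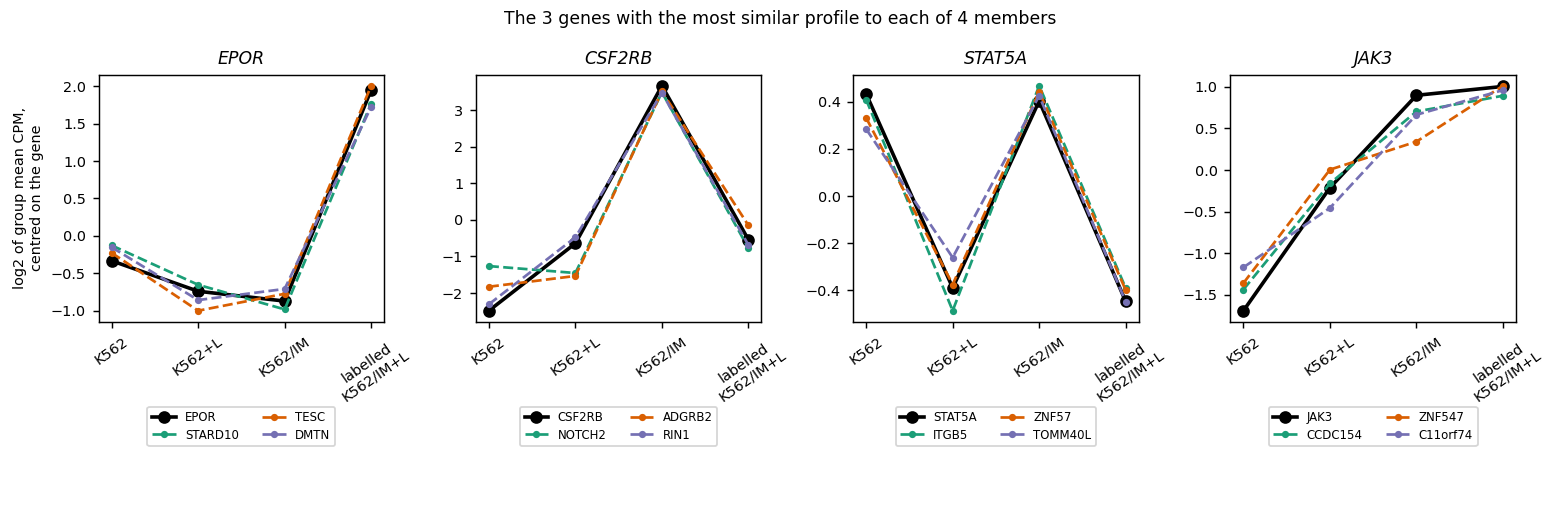
Log2 of the group mean CPM, centred on each gene over the 4 groups, for EPOR, CSF2RB, STAT5A and JAK3 (black) and for the 3 genes with the most similar profile over 12 libraries (dashed). EPOR and its 3 nearest genes are highest in the labelled K562/IM+L libraries, CSF2RB and its nearest in K562/IM, and STAT5A and its nearest in both untreated groups.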

How the data were processed

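Poly(A) RNA-seq libraries of 4 groups (n = 3 each, 12 libraries) were analysed, grouped by the treatment in their sample labels. The authors deposited 1 table of raw counts per gene symbol, without normalization. The submitters' processing notes name FastQC, STAR, StringTie and DESeq2 and the build hg38. Their versions, roles and settings, the annotation and the strand setting are not given in the sources used here.

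Computation used R 4.3.3 and edgeR 4.0.16. For each pairwise comparison, 6 libraries were filtered with filterByExpr (minimum count 10), scaled by TMM and fitted with the quasi-likelihood test, with Benjamini-Hochberg adjustment over all genes tested. The difference of the lycorine effects between the lines was an interaction over 12 libraries. CPM used TMM over the 12 libraries. Per-length levels used union exon lengths of GENCODE release 29, to which 19029 of 19447 symbols matched, and are comparable between genes of 1 library. Promoters came from RefSeq.

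The members and the gene lists were chosen with earlier results of these data known. All members are named, and from each list the 3 genes with the largest change among those that passed and did not overlap, in each pairwise comparison. GATA1, CD53, IL3RA, IL5RA, CSF2RA, EPO, IL3, LIFR, IL6ST, GRB2, BCL6 and further values of named genes were added after their values were seen. Each step was tested on simulated data. Alternatives were DESeq2 1.42.0, its size factors, upper-quartile scaling, no filter or at least 10 counts in every library, counts divided by 4, all 12 libraries in 1 fit, the replicate number as a block, a log2 fold change over 1 as a further threshold, and each library left out. Counts without genes that had 0 libraries at the filter minimum in a compared group were added after seeing the data.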

Additional observations from a re-analysis of the deposited data

Results flagged for a closer look

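In 2 members the lycorine effect differed between the lines by edgeR's interaction test over 12 libraries, against a background of 61.7% of 13995 genes. For EPOR the effect was 3.24 higher on the log2 scale in K562/IM, as labelled, than in K562 (SE 0.143, adjusted p = 8.13e-09), with EPOR lower in 3 of 3 K562+L libraries than in any K562 library and higher in 3 of 3 labelled K562/IM+L libraries than in any K562/IM library. For STAT5B the difference was 0.68 (SE 0.106, adjusted p = 0.000172), again with opposite directions and no overlap in either line. Both differences rest on the labelled K562/IM+L libraries, whose group number is not the same in the labels and in the study's figures. With 3 libraries in each group, none was tested for outlying values.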

How the results depend on the processing

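Among the members' log2 fold changes under the alternatives, 633 kept their direction and their side of the threshold, 24 no longer passed, 17 passed where the reported value had not, and 36 changed sign, none of them of a change that had passed. These numbers include JAK3 and CSF2RB also where they had 0 libraries at the filter minimum in a compared group. All values of that kind kept direction and side, and they are not read here as support. With a log2 fold change over 1 as a further threshold, 826, 2566, 3917 and 3162 genes passed in the 4 pairwise comparisons, and 4720 in the interaction. Without genes that had 0 libraries at the filter minimum in a compared group, these numbers were 771, 2101, 3414, 2913 and 4235. JAK3 and CSF2RB were left out where this held. The members that passed were then 0 in K562+L against K562 and 0 in K562/IM against K562. EPOR alone passed in the labelled K562/IM+L libraries against K562/IM, against K562 and in the interaction. With each library left out, the members that passed in K562+L numbered 1 to 4 and all genes 2871 to 5823.

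The replicate numbers did not pair the libraries, since only 1 of 12 correlations of same-numbered libraries exceeded 0.1 (-0.569 to 0.141), and in the 4 pairwise comparisons 0, 2, 2 and 1 of 6 libraries correlated best with their own number. With the number as a block, 2 members and 3126 genes passed in K562+L against K562, STAT5B (adjusted p = 0.0946) and EPOR (0.0907) no longer did, and TYK2 in the labelled K562/IM+L libraries against K562 no longer did (0.0991).

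The changes that turned sign with upper-quartile scaling were those of JAK2 in K562+L (-0.038), STAT5A in K562/IM (0.017) and the interactions of STAT5A (0.11) and STAT6 (0.13). STAT3 in K562/IM became -0.0013 with DESeq2 and with its size factors, and TYK2 in the labelled K562/IM+L libraries against K562/IM became -0.0088 in the fit of 12 libraries. The STAT6 interaction, near 0, became 0.011 with DESeq2 and with its size factors, 0.020 with at least 10 counts in every library, 0.0080 with counts divided by 4 and 0.0031 with the block. With each library left out, log2 fold changes ran from -0.12 to 0.12 for JAK2 in K562+L, from -0.12 to 0.20 for STAT3 and -0.11 to 0.00033 for STAT5A in K562/IM, from -0.034 to 0.040 for TYK2 and -0.10 to 0.35 for JAK3 in the labelled K562/IM+L libraries against K562/IM, and from -0.090 to 0.20 for JAK2 against K562. Interactions ran from -0.066 to 0.036 for STAT5A, -0.084 to 0.078 for STAT6 and -0.18 to 0.49 for STAT3. The cause was not tested. Upper-quartile scaling raised the median of all genes by 0.15 in the labelled K562/IM+L libraries against K562, where 61.3% of the genes that passed were then higher against 50.4%, and by 0.13 in the interaction. Low counts limit JAK3 and CSF2RB.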
